A study of Mus musculus with 18 samples.

Results

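The Hox genes encode homeodomain transcription factors that lie in 4 clusters, HoxA to HoxD, each ordered by paralogue number. They were taken as all genes whose single symbol on the array was Hox followed by a cluster letter and a number, with the probe set of highest mean level for each gene. The rule found 37 genes among 19938 named genes, and each of the 37 had 1 probe set. Hoxb8 was listed only on a probe set shared with Hoxb7 and is not among them. The members were 10 HoxA, 9 HoxB, 9 HoxC and 9 HoxD genes. By paralogue number, 7 were anterior (1 to 3), 14 central (4 to 8) and 16 posterior (9 to 13).

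In the embryo, low paralogue numbers are used in the head and neck region and high numbers in the trunk, tail and distal limb. Fibroblasts keep a combination of Hox genes that reflects the body site they came from. In pluripotent cells the clusters are held silent, largely by Polycomb complexes, and retinoic acid, Wnt and Fgf signals with the Cdx factors open them in order. Apc is a negative regulator of Wnt signalling that promotes the breakdown of β-catenin.

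RNA was measured on 18 mouse arrays, each read once in a single colour. The study asked whether reprogrammed colon tumor cells (RTCs) resemble pluripotent cells, and what Apc mutation and induction of a mutant β-catenin do to expression in different cell types. There were 10 pluripotent arrays. They comprised 3 RTC arrays, RTC 1, RTC 2 and RTC 3, and 2 lines derived from these cells (derivative #45 of RTC 1 and derivative #9 of RTC 3). The other pluripotent arrays were embryonic stem cells (ESCs): 1 Apc Min/Min, 1 Apc +/+, 1 Apc Min/+ and 2 named S33, without and with doxycycline (dox). The differentiated arrays were 2 of small intestinal organoids and 4 of embryonic fibroblasts (MEFs), all grown from derivative #45, and 2 of S33 MEFs without and with dox. Organoids and #45 MEFs were given 4-hydroxytamoxifen (4-OHT) or not, at 1 µM in organoids and 2 µg/ml in MEFs, for 2 days. The labels do not state the Apc state of RTCs, derivatives, organoids or #45 MEFs, what the S33 construct carries, the body site or litter of the MEFs, or whether arrays of a group came from separate cultures. P-values therefore measure only the spread between these arrays, which may be technical. The labels' growth notes name Min/Min ESCs kept in a trophoblast stem cell medium, and do not say whether the Apc Min/Min array is one of these.

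Levels are log2 intensities after joint quantile normalization of the 18 arrays, which gave every array a median of 7.93. A difference of 1 is 2-fold. Levels of different genes come from different probes and are not compared. Pluripotent markers averaged between 12.32 and 12.66 in the pluripotent arrays and between 6.82 and 7.07 elsewhere. Intestinal markers averaged 12.43 and 12.52 in the organoids, and fibroblast markers 11.87 to 12.53 in the MEFs, so each labelled cell type showed its own markers. The Wnt target Axin2 was at 10.41 to 10.57 in RTCs and 10.90 in Apc Min/Min ESCs, against 8.26 to 9.14 in the derivatives and in Apc +/+, Apc Min/+ and undosed S33 ESCs. With dox, Axin2 differed by 2.67 in S33 MEFs and by 0.22 in S33 ESCs. Lef1, a Wnt effector and target, differed by 2.47 in S33 MEFs and by -2.59 in S33 ESCs. Lef1 did not separate the pluripotent groups: it was at 9.69 to 9.95 in RTCs and 9.27 in Apc Min/Min ESCs, against 8.74 to 9.16 in derivatives and Apc +/+ and Apc Min/+ ESCs and 10.37 in undosed S33 ESCs. In bulk samples such as these, fewer cells that express a gene and less RNA per cell cannot be told apart.

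Promoter sequences were available for 21 of the 37 members (23 windows) in RefSeq's annotation of GRCm38.p6. The 250 bases before the start of each Hox gene held a median of 13 CpG dinucleotides (range 2 to 35), against 6 over 32851 promoters, of which 31.5% held 13 or more. Of these windows 4 are printed because their genes stand at opposite ends of the fibroblast result: Hoxa5, Hoxd10 and Hoxd13 were among the 8 with the largest fibroblast differences, and Hoxd1 was not called. CpG dinucleotides are in capitals and each reads 5′ to 3′ on the gene's strand. Hoxa5 (chr6:52204588-52204837, minus strand), Hoxd10 (chr2:74691641-74691890, plus strand), Hoxd13 (chr2:74667975-74668224, plus strand) and Hoxd1 (chr2:74762730-74762979, plus strand) held 28, 20, 31 and 24 CpG dinucleotides.
Hoxa5: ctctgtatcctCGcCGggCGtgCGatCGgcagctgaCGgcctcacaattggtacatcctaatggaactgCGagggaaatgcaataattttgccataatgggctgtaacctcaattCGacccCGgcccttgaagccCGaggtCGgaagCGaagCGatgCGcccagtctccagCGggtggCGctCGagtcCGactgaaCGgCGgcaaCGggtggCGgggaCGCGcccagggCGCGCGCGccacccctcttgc
Hoxd10: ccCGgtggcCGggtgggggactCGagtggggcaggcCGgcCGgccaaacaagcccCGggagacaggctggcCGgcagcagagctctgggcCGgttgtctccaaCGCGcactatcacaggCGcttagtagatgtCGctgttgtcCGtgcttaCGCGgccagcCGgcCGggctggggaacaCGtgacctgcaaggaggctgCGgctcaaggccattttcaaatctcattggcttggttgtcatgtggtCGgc
Hoxd13: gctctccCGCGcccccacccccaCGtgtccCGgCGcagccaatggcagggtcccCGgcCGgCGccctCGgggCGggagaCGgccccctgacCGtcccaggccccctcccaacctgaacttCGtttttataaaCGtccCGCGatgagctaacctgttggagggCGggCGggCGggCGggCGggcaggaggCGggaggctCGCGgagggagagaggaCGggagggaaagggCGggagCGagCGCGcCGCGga
Hoxd1: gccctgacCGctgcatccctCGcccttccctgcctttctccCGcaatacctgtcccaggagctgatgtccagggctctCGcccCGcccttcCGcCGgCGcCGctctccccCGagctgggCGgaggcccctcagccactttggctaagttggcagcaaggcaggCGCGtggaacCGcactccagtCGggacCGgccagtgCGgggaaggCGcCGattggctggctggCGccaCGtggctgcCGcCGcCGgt
Hoxd1 thus lay inside the CpG range of the others, so this count did not set it apart from them.

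The motifs below were searched on both strands of the 250 bases. The Cdx-type letters TTTATG were found in 17.4% of the Hox windows (Hoxa7, Hoxd3, Hoxd4 and 1 of the 2 windows of Hoxd11) and in 10.8% of all promoters. The Tcf/Lef-type letters CTTTGAT were found in 4.35% (Hoxd8 alone) and in 3.21%, and the Hox-Pbx-type letters TGATNNAT in 13% (Hoxa2, Hoxb1 and 1 window of Hoxd11) and in 7.68%. Hoxa7 held 2 matches of the Cdx type, in capitals here (chr6:52218574-52218823, minus strand), and is printed because Cdx genes differ between several of the groups below.
Hoxa7: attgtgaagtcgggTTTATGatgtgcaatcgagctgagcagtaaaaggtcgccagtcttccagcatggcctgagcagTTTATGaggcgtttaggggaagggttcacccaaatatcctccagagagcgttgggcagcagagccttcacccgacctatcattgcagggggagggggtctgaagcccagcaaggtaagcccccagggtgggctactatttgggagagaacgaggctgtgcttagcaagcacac
A match is a description of letters and not a site of binding.

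Fibroblasts carried a broad Hox programme and the pluripotent cells and organoids carried little of it. In each of the 6 MEF arrays between 28 and 31 of the 37 Hox genes lay above the array's median, against 5 to 10 in a pluripotent array and 4 or 7 in an organoid array. The mean Hox level was 8.82 to 9.13 in MEF arrays, 7.21 to 7.53 in pluripotent arrays, and 7.20 and 7.02 in organoids without and with 4-OHT. For 30 of the 37 genes the lowest MEF array was above the highest of the 10 pluripotent arrays, which held for 16.1% of all genes. For 29 it was above all 12 other arrays (11.5% of all genes). The exceptions to the first count were Hoxb1, Hoxb13, Hoxc4, Hoxc12, Hoxc13, Hoxd1 and Hoxd4, and the second count also lost Hoxa4.

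**Figure D1:**
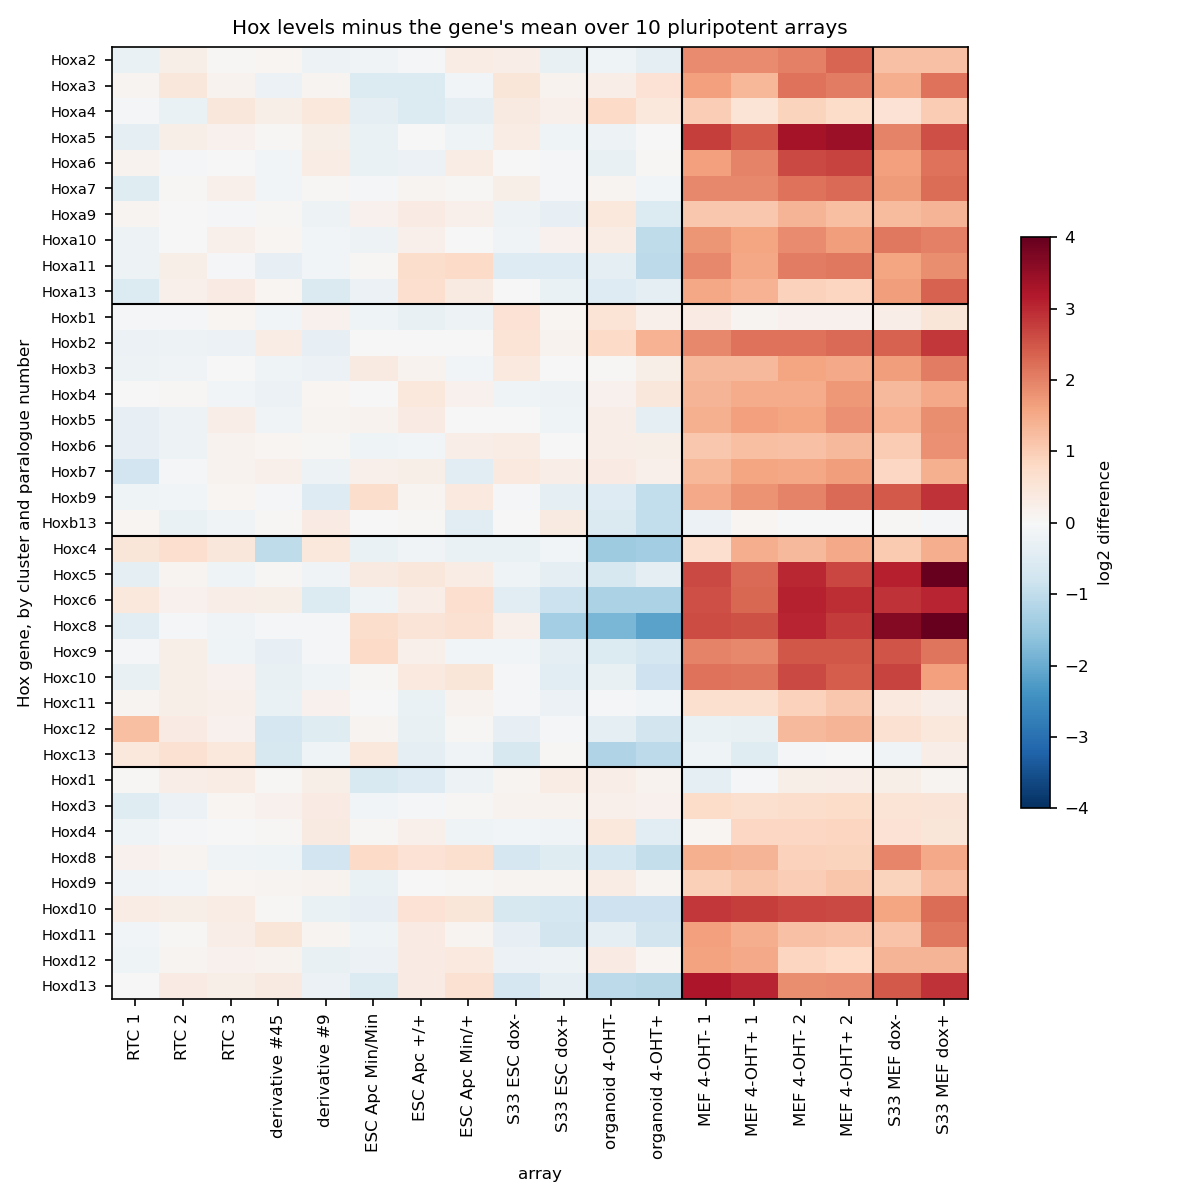
Heat map of the 37 Hox genes (rows, by cluster and paralogue number) in the 18 arrays (columns), coloured by the log2 level minus that gene's mean over the 10 pluripotent arrays. The 6 MEF columns are red in most rows, Hoxb13, Hoxc13 and Hoxd1 are pale there, and both organoid columns are blue at Hoxc4, Hoxc6, Hoxc8 and Hoxc13.

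The 4 #45 MEF arrays were set against the 2 derivative arrays in one limma model with the organoids, with cell type and 4-OHT as terms. Of all 37 Hox genes, with no filter on dim genes, 31 were higher in MEFs and 0 lower at a Benjamini-Hochberg adjusted p under 0.05. Over all genes in the same fit 19.6% were called higher and 18.7% lower. The median Hox difference was 1.60, against 0.04 over all genes. With the filter, which kept genes above the median in at least 1 array of the model, 31 Hox genes were tested and 29 called (28% of tested genes higher). Above the median were 29 or 30 Hox genes in a #45 MEF array and 7 or 8 in a derivative. Most members thus passed only through the MEFs in which they were high, and the filtered count adds no separate support. For members that passed it, the standard errors and adjusted p-values given below are from the filtered fit, unless stated otherwise. These carry the same limit. MEFs came from #45 alone, while 1 of the 2 derivatives was #9. Taken pair by pair, 27 Hox genes were at least 2-fold higher in the first #45 MEF pair than in derivative #45, and 27 in the second MEF pair than in derivative #9, which shares identical deposited values with that pair (14.4% and 12.5% of all genes).

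Central HoxC genes, which are used in the thoracic trunk and forelimb, held the largest differences with Hoxd10 and Hoxa5. Hoxc6 was at 10.10, 9.82, 10.61 and 10.46 in #45 MEFs (first pair without and with 4-OHT, then second pair) and at 7.75 and 6.96 in derivatives #45 and #9. It did not overlap, and differed by 2.96 ± 0.31 (SE, limma, Benjamini-Hochberg adjusted p = 0.00027 with the filter and 0.00029 without it). Hoxc8, a regulator of thoracic vertebra and motor neuron identity, was at 11.54, 11.48, 11.96 and 11.73 against 8.89 and 8.84, a difference of 2.91 ± 0.18 (adjusted p = 3.5e-05). In S33 MEFs Hoxc8 reached 12.58 and 13.02, above every #45 MEF array. Hoxc5 stood at 9.69, 9.31, 10.07 and 9.73 against 7.08 and 6.92, a difference of 2.77 ± 0.24 (adjusted p = 0.00011). Hoxc4 had a smaller difference of 1.36 ± 0.42 (adjusted p = 0.03 with the filter and 0.037 without it). All 4 central HoxC genes measured were called, with a median difference of 2.84.

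Hoxa5, which acts in lung and cervicothoracic patterning, led the HoxA cluster. Its levels in #45 MEFs were 9.79, 9.50, 10.37 and 10.45, against 7.09 and 7.26 in the derivatives. The second MEF pair was the higher one, and the difference over all 4 arrays was 2.85 ± 0.32 (adjusted p = 0.00034). All 10 HoxA genes were called, from 0.63 ± 0.14 for Hoxa4 to Hoxa5, with a cluster median of 2.02. In the HoxB cluster 7 of 9 genes were called, with a median of 1.49. Hoxb9, a thoracic gene, differed by 2.17 ± 0.28 and Hoxb2, a hindbrain gene, by 1.99 ± 0.23.

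Posterior genes were in the fibroblast set as well. Hoxd10, used in the lumbar cord and limb, was at 10.11, 10.05, 9.96 and 9.92 in #45 MEFs and at 7.31 and 6.99 in the derivatives, a difference of 2.87 ± 0.16 (adjusted p = 2.6e-05). All 4 MEF values lay close together and did not overlap with the derivatives. Hoxc10, a hindlimb and lumbar gene, was at 9.26, 9.23, 9.74 and 9.52 against 6.78 and 6.93, a difference of 2.71 ± 0.21 (adjusted p = 7.5e-05). Hoxd13, which patterns digits and genitalia, was at 11.08, 10.90, 9.72 and 9.74 against 8.22 and 7.63, a difference of 2.48 ± 0.49 (adjusted p = 0.0043). Here the first MEF pair stood above the second, and both stood above the derivatives. Hoxc9 completed the 8 largest, at 9.64, 9.55, 10.14 and 10.12 against 7.32 and 7.57, a difference of 2.45 ± 0.24 (adjusted p = 0.00018).

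No simple axial order was seen in the size of the fibroblast differences. Medians were 1.60 for anterior genes (5 of 7 called), 1.67 for central genes (13 of 14) and 1.45 for posterior genes (13 of 16). By cluster, HoxC had a median of 2.45 and HoxD of 1.15, with 7 of 9 called in each. The HoxD cluster held both ends of the range, with Hoxd10 and Hoxd13 above 2 and Hoxd1 at -0.14 ± 0.22, Hoxd4 at 0.46 ± 0.34 and Hoxd3 at 0.47 ± 0.13. Hoxd3 was called in the fit without a filter (adjusted p = 0.021), and Hoxd1 and Hoxd4 were not (adjusted p = 0.69 and 0.36).

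Between MEFs and derivatives 6 Hox genes were not called in the fit without a filter. With the values of that fit, they were Hoxb1 (0.26 ± 0.15), Hoxd1, Hoxd4, Hoxb13 (-0.23 ± 0.19), Hoxc13 (0.23 ± 0.21) and Hoxc12 (1.16 ± 0.58, adjusted p = 0.175). Hoxb1 marks a single hindbrain segment, and Hoxb13 is a tail bud and prostate gene. Hoxb1 lay between 7.97 and 8.34 in MEFs and between 7.56 and 8.42 in pluripotent arrays, so the groups overlapped fully. Hoxb13 lay between 7.15 and 7.45 in MEFs and between 6.93 and 7.73 in pluripotent arrays, below the array median throughout.

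**Figure D2:**
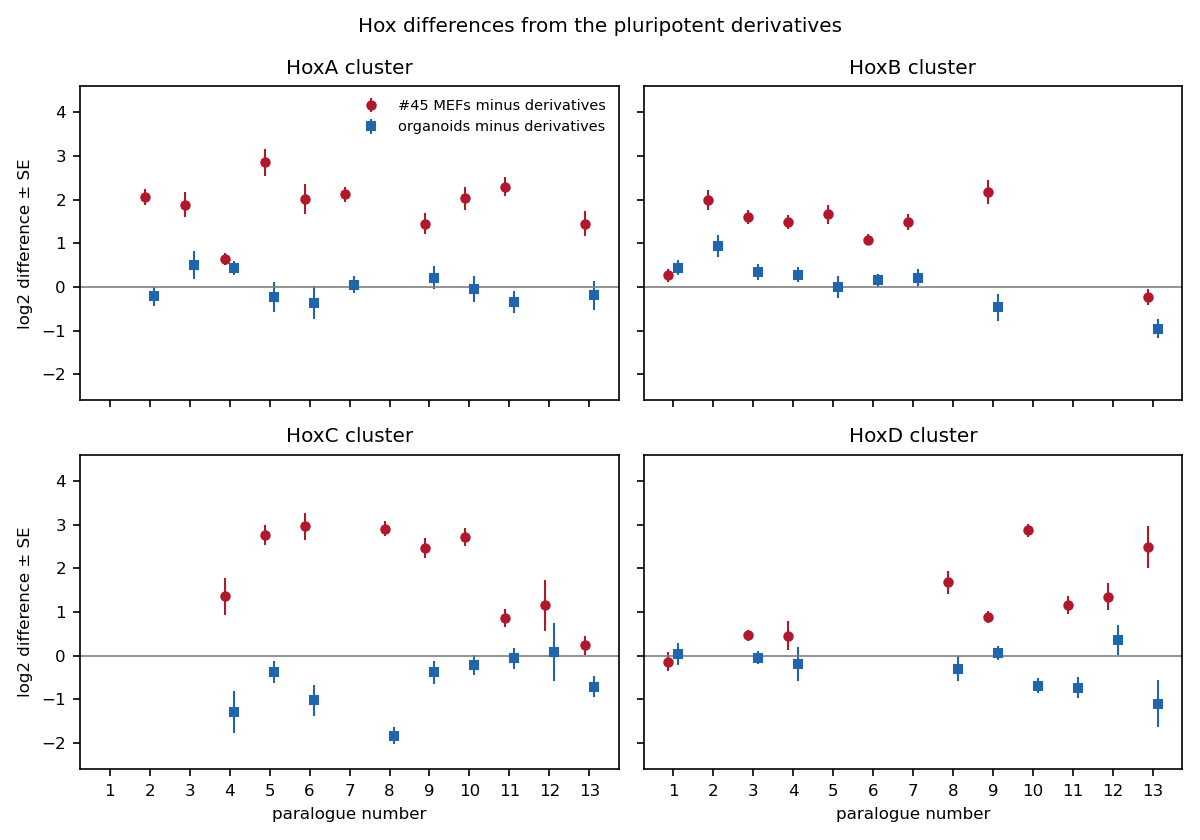
Log2 difference ± SE from the 2 derivatives for each Hox gene, by paralogue number and cluster, for #45 MEFs (red circles, 4 arrays) and organoids (blue squares, 2 arrays), from the model without a filter on dim genes. Red points lie above 0 from paralogue 2 to 13 except Hoxb13 and stand highest at Hoxc6 (2.96), and blue points run from -1.83 (Hoxc8) to 0.93 (Hoxb2).

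Genes that act with the Hox factors or mark body regions were read from lists, and their counts stand against 28% of all tested genes higher and 26.4% lower in MEFs. Of 8 TALE cofactors tested (homeodomain partners that share DNA sites with Hox proteins), 4 rose in MEFs and 0 fell, with a median of 0.91 against 0.04 over all genes. They were Meis2 at 3.06 ± 0.25, Meis1 at 2.22 ± 0.30, Meis3 at 1.85 ± 0.16 and Pbx3 at 1.48 ± 0.18. Of 20 limb and regional genes tested 18 rose and 1 fell, led by Tbx15 (3.83 ± 0.30) and the forelimb gene Tbx5 (3.77 ± 0.34), with a median of 1.74. Of 25 Polycomb genes 5 rose and 15 fell, with a median of -0.70. The largest falls were in the reader Cbx7 (-3.63 ± 0.17), the recruitment factors Jarid2 (-3.12 ± 0.24) and Mtf2 (-2.87 ± 0.17), and Phc1 (-3.07 ± 0.26). Of 14 Trithorax genes, which counter Polycomb, 1 rose and 6 fell, led by Dpy30 (-2.08 ± 0.16), with a median of -0.51. Of 13 retinoid and caudal regulators 7 rose and 1 fell, and the retinal reductase Dhrs3 (2.81 ± 0.23) led them. Of 8 genes beside the clusters 0 rose and 3 fell, against the 26.4% of all tested genes that fell. They were Calcoco2 at -3.71 ± 0.21, Ttll6 at -1.24 ± 0.22 and Skap2 at -0.80 ± 0.27.

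The 2 #45 MEF pairs also differed from each other. This was noticed in the values, so it is given as a description with no test. Of the 37 Hox genes 30 were lower in the first pair and 7 higher, with a median difference of -0.25, against a median near 0 over all genes. Among genes that passed the filter in these arrays, 24 of 31 Hox genes were lower, while 51.6% of all genes were higher. Central genes were lower in 13 of 14 cases (median -0.32), anterior in 6 of 7 (-0.25) and posterior in 11 of 16 (-0.14). The largest differences were at posterior genes and ran both ways. Hoxd13 was at 11.08 and 10.90 in the first pair and 9.72 and 9.74 in the second, a difference of 1.26. Hoxd12, its neighbour, was at 8.69 and 8.59 against 7.92 and 7.87, and Hoxa13 at 9.14 and 8.97 against 8.52 and 8.44. Hoxc12 ran the other way, at 7.40 and 7.36 in the first pair and 8.96 and 9.01 in the second (a difference of -1.61), and its first-pair values lay inside the pluripotent range of 7.0 to 8.87. Hoxa6 was also lower in the first pair, at 8.90 and 9.25 against 9.88 and 9.97. Hoxd13 and Hoxc12 were the members at least 2-fold apart, 2 of 37 against 1.89% of all genes. Immune markers moved with the pairs, averaging 10.57 and 10.39 in the first and 8.46 and 8.32 in the second over 6 genes. Their part in the Hox values was not tested.

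S33 MEFs shared most of the fibroblast pattern and differed at a few genes. Set against the mean of the 2 #45 MEF arrays without 4-OHT, the S33 MEF array without dox was at least 2-fold lower at Hoxd10 (8.84 against 10.11 and 9.96, a difference of -1.19) and Hoxa5 (9.01 against 9.79 and 10.37, a difference of -1.07). No Hox gene was at least 2-fold higher, and 2.94% of all genes were 2-fold apart. At Hoxc8 the difference was 0.83 and at Hoxd8 0.77. Both S33 MEF arrays were above all 4 #45 MEF arrays for 8 Hox genes (Hoxa10, Hoxa13, Hoxb2, Hoxb3, Hoxb9, Hoxc5, Hoxc8 and Hoxd8; 20.5% of all genes). Both were below for Hoxa2, Hoxc11, Hoxd3 and Hoxd10 (17.5% of all genes). Immune markers averaged 7.28 and 7.17 in S33 MEFs, below every #45 MEF array, and their part was not tested.

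**Figure D3:**
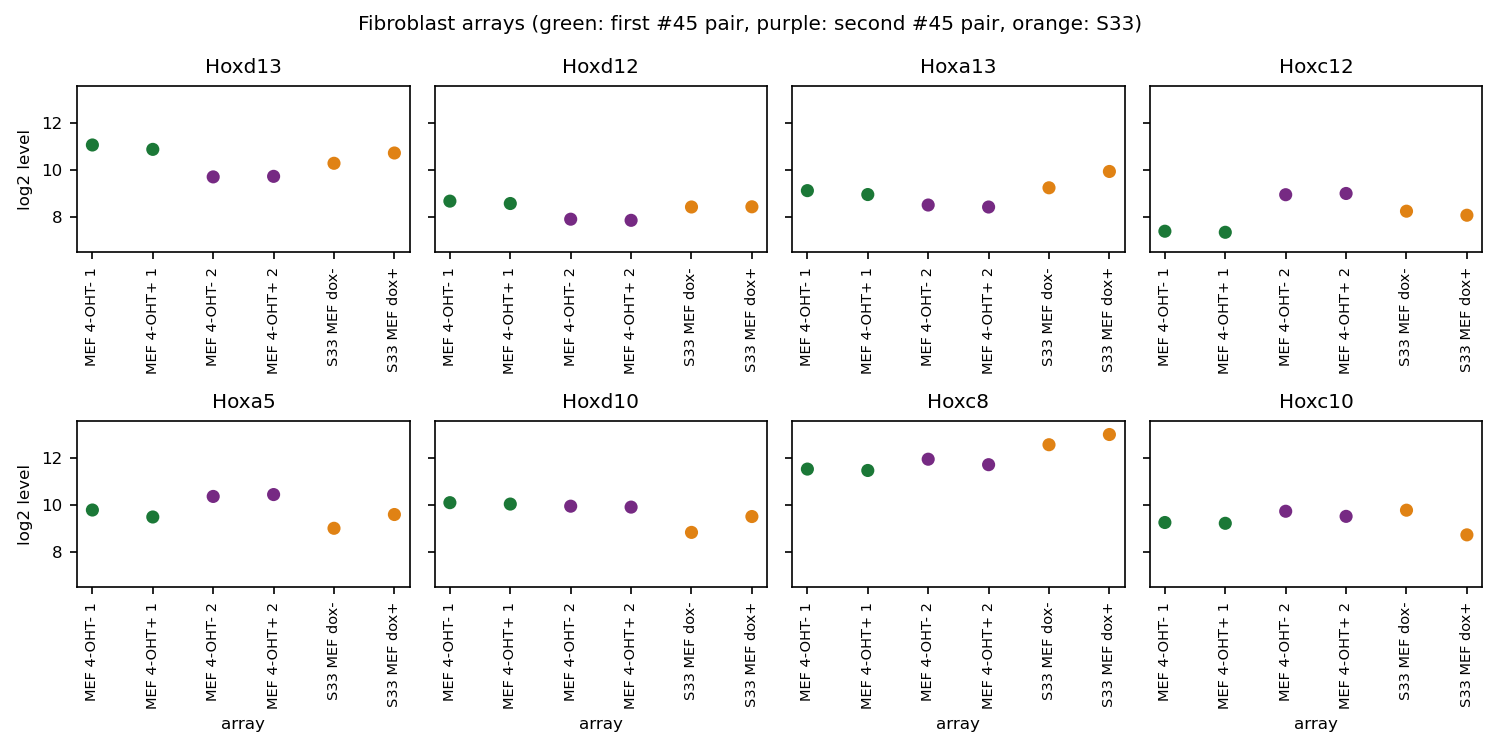
Log2 level of 8 Hox genes (panels) in the 6 MEF arrays, coloured by pair: first #45 pair (green), second #45 pair (purple) and S33 without and with dox (orange). Hoxd13, Hoxd12 and Hoxa13 are higher in the first #45 pair than in the second, Hoxc12 is lower there (7.40 and 7.36 against 8.96 and 9.01), and Hoxc10 is below the other 5 arrays in S33 with dox (8.73).

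Adding 4-OHT to #45 MEFs moved no Hox gene past the threshold. Of the 31 tested, limma called 0 (0% of 11603 genes) and none had an unadjusted p under 0.05. Among the 31 the median difference was -0.05. The largest differences among the 31 were at Hoxc4 (0.50 ± 0.24), Hoxc5 (-0.36 ± 0.22) and Hoxa4 (-0.29 ± 0.11). Without and with 4-OHT, Hoxc4 was at 7.70 and 8.48 in the first pair and at 8.34 and 8.56 in the second. Hoxd13 changed less, at 11.08 to 10.90 in the first pair and 9.72 to 9.74 in the second. Axin2 in these MEFs was at 8.55 and 8.53, then 8.63 and 8.81, without and with 4-OHT.

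Dox in S33 MEFs went with small and mostly upward Hox differences. There was 1 array per arm, so there is no replicate check and no test. Of the 37 genes 26 were higher with dox and 11 lower, against 54.3% of all genes higher, and the median difference was 0.37 against 0.02. At least 1.5-fold higher were 7 genes (4.39% of all genes) and lower 1 (5.39%). Central genes were higher in 12 of 14 cases, posterior in 10 of 16 and anterior in 4 of 7. The like #45 MEF pairs, as given above, differed in 1 direction at 30 of 37 genes with a median of -0.25. The gene at least 2-fold apart was Hoxc10, a lower value with dox, at 9.79 and 8.73, a difference of -1.05 (3.75% of all genes were 2-fold apart). Hoxd11, a zeugopod gene, was at 9.23 and 10.22, and Hoxc5 at 10.16 and 11.12, differences of 0.99 and 0.96. Hoxb6 was at 7.90 and 8.72. In the #45 MEFs Hoxd11 spanned 9.23 to 9.74 and Hoxc5 9.31 to 10.07, so both dox values were above every other MEF array. Fibroblast markers averaged 12.53 without and 12.03 with dox, with 3 of the 12 at least 2-fold lower (Lum at -2.32, Dcn at -1.97 and Pdgfra at -1.31), and their part was not tested.

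In S33 ESCs the balance ran the other way. Of the 37 genes 9 were higher with dox, 27 lower and Hoxd9 equal in value, against 49.3% of all genes higher, with a median of -0.15. Only 8 of the 37 lay above the array median in at least 1 of the arrays (1 higher and 7 lower with dox). In S33 MEFs 31 did, so most signs in ESCs are those of dim members. Hoxc8 was at 9.13 without and 7.57 with dox, a difference of -1.56, and was the gene at least 2-fold apart (1.96% of all genes). Hoxc8 with dox lay below the other 9 pluripotent arrays, which spanned 8.50 to 9.64. Hoxc13 was at 7.10 and 7.78, a difference of 0.68. Fibroblast markers averaged 8.97 without and 8.23 with dox, the lowest of the pluripotent arrays, with 5 of the 11 that passed the filter at least 2-fold lower, and the cofactor Meis2 differed by -2.54. The part of the fibroblast markers in the Hox values was not tested. Whether dox acts differently on Hox genes in the 2 cell types was not tested either, since each arm had 1 array.

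**Figure D4:**
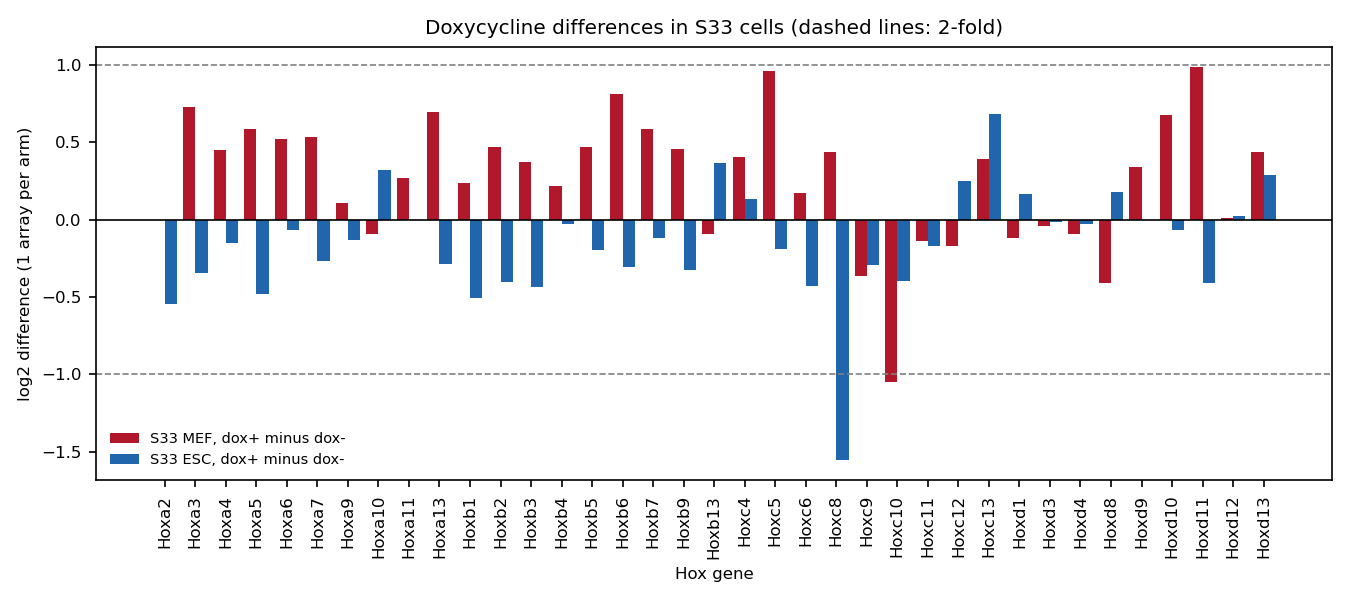
Log2 difference with minus without dox for each Hox gene in S33 MEFs (red) and S33 ESCs (blue), 1 array per arm, with dashed lines at 2-fold. Most red bars point up (26 of 37), most blue bars point down (27 of 37), and the bars past a dashed line are Hoxc10 in MEFs (-1.05) and Hoxc8 in ESCs (-1.56).

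Small intestinal organoids, which come from endoderm and carry few Hox transcripts here, stayed close to the pluripotent level. Against the derivatives, limma without a filter called 1 of 37 Hox genes higher (15.6% of all genes) and 3 lower (16.7%). The median Hox difference was -0.19. Hoxb2 was the higher one, at 8.72 and 9.37 in organoids without and with 4-OHT against 8.25 and 7.65, a difference of 0.93 ± 0.26 (adjusted p = 0.024 with the filter). It was also above all 10 pluripotent arrays, the only member for which this held (20.2% of all genes). Hoxc8 was lower, at 7.08 and 6.79 against 8.89 and 8.84, a difference of -1.83 ± 0.20 (adjusted p = 0.00035). Hoxd10 was at 6.45 and 6.44 against 7.31 and 6.99 (-0.69 ± 0.18, adjusted p = 0.016). Hoxb13 was at 6.81 and 6.39 against 7.43 and 7.71 (-0.96 ± 0.21, adjusted p = 0.011 without the filter). With the filter, 31 members were tested and 5 called (45% of tested genes in either direction), adding Hoxd11 (-0.74 ± 0.25, adjusted p = 0.044) and Hoxc6 (-1.03 ± 0.35, adjusted p = 0.049). The filter ran over all arrays of the model, #45 MEFs included, so most members passed it only through the MEFs. Hoxc6 and Hoxd10 lay below the array median of 7.93 in every organoid and derivative array. Without derivative #9 or either organoid array Hoxb2 missed the threshold (adjusted p = 0.065, 0.062 and 0.084), as it did on the values as deposited (0.65, adjusted p = 0.067). Hoxc8 was called without any 1 array and on the deposited values.

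By position, the organoid medians were 0.34 for anterior, -0.21 for central and -0.27 for posterior genes. All 3 anterior HoxB genes had positive values, Hoxb1 at 0.44 ± 0.18 (adjusted p = 0.081), Hoxb2 as above and Hoxb3 at 0.34 ± 0.18 (adjusted p = 0.17). In both organoid arrays 8 members were below all 10 pluripotent arrays (18.4% of all genes): Hoxb13, Hoxc4, Hoxc6, Hoxc8, Hoxc9, Hoxc13, Hoxd10 and Hoxd13. Fibroblast markers were also lower in organoids, at 7.52 and 7.19 against 9.10 and 8.86 in the derivatives, with 7 of 12 called lower and 0 higher. Their part in the lower Hox values was not tested. Over all tested genes 21.2% rose and 23.7% fell in organoids. Of the 13 retinoid and caudal genes 5 rose and 5 fell, and the intestinal master regulators Cdx2 (4.59 ± 0.21) and Cdx1 (1.97 ± 0.22) were among those that rose. Of 9 gut regional genes 5 rose and 1 fell, Gata4 at 3.75 ± 0.27, Gata6 at 3.64 ± 0.18 and Onecut2 at 3.45 ± 0.18 rising and Sox2 at -6.07 ± 0.27 falling.

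Against #45 MEFs 32 of the 37 Hox genes were lower in organoids and 0 higher, without the filter (20.4% of all genes lower and 20.3% higher). With it 28 of 31 were lower, against 27.5% of tested genes, and most of the 31 passed it only through the MEFs. Hoxc8 differed by -4.74 ± 0.16, Hoxc6 by -3.99 ± 0.28, Hoxd13 by -3.58 ± 0.44 and Hoxd10 by -3.56 ± 0.14. Hoxd13 was at 6.82 and 6.75 in organoids, below every MEF and pluripotent array. Hoxa4 (-0.20 ± 0.13), Hoxb1, Hoxc12, Hoxd1 and Hoxd4 were not called. Hoxa4 was at 8.83 and 8.50 in organoids and at 8.63 to 9.05 in #45 MEFs, and the groups overlapped.

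With 4-OHT, 1 organoid array against 1, Hoxa10 was at 8.21 without and 6.90 with it, a difference of -1.31, and Hoxa9 was at 7.83 and 6.87. Hoxa10 was the gene at least 2-fold apart (2.33% of all genes), and there is no replicate check. The organoid array with 4-OHT had the lowest deposited median, 142 intensity units against 201 to 317 in the other 17 arrays.

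Among pluripotent cells few Hox genes passed the test, and their share was near that of all genes or rested on 1 or 2 members. RTCs were first set against 3 ESC arrays, namely Apc +/+, Apc Min/+ and the undosed S33. Without the filter 2 Hox genes were higher in RTCs and 0 lower (2.02% of all genes higher and 1.99% lower). Hoxc13, a hair and nail gene, was at 8.16, 8.35 and 8.14 in RTCs and at 7.36, 7.60 and 7.10 in the ESCs. It differed by 0.86 ± 0.16 (adjusted p = 0.022 with the filter and 0.024 without it). Hoxc4 was at 7.51, 7.72 and 7.50 against 6.90, 6.76 and 6.78, a difference of 0.76 ± 0.13 (adjusted p = 0.017 without the filter, which it did not pass). For both genes the groups did not overlap. Immune markers moved with this comparison, averaging 8.39 to 9.30 in RTCs and 7.74 to 8.09 in the ESCs, with 3 of the 4 tested called higher, and their part was not tested. With the filter 15 members were tested and Hoxc13 was called (6.69% of tested genes). Hoxc13 missed the threshold on the values as deposited (adjusted p = 0.10), and without RTC 2, RTC 3 or Apc +/+ (adjusted p = 0.089, 0.083 and 0.07).

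Against the 2 derivatives, limma called 0 of the 13 tested Hox genes (1.6% of tested genes), with 2 at an unadjusted p under 0.05. These were Hoxc13 (0.89 ± 0.20, adjusted p = 0.091) and Hoxc12 (1.14 ± 0.32, adjusted p = 0.16). Hoxc12, a distal limb and hair follicle gene, was at 8.87, 7.98 and 7.83 in RTCs and at 7.0 and 7.17 in derivatives #45 and #9. RTC 1 was the high array. Compared line by line, RTC 1 stood above its derivative #45 by 1.87 at Hoxc12, 1.48 at Hoxc4 and 1.06 at Hoxc13, and RTC 3 above its derivative #9 by 0.67, 0.05 and 0.58.

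The RTC and Apc Min/Min arrays were then set against the 5 arrays that carry a functional Apc copy by their labels or as background: both derivatives and the Apc +/+, Apc Min/+ and undosed S33 ESCs. Axin2 was higher in each of the 4 arrays than in any of the 5. Of 17 Hox genes tested 1 was called (3.71% of tested genes). Hoxc13 was at 8.16 in Apc Min/Min and in RTCs as above, against 7.10 to 7.60 in the other 5, a difference of 0.86 ± 0.15 (adjusted p = 0.0095). The groups did not overlap for Hoxc13 or Hoxc12, 2 of 37 members against 2.32% of all genes. At Hoxc12 the difference was 0.80 ± 0.23 (adjusted p = 0.095). Hoxc13 was called without any 1 array (adjusted p at most 0.041), and not on the values as deposited (adjusted p = 0.092). In #45 MEFs, organoids and S33 MEFs Hoxc13 was at 7.23 to 7.74, 6.53 and 6.67, and 7.59 and 7.99, all below the 4 arrays in which it was high.

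Both Cdx1 and Cdx2 moved in the same arrays. Cdx2 was at 8.34, 8.98 and 9.12 in RTCs and 9.48 in Apc Min/Min, against 6.88 to 7.56 in the other 5, a difference of 1.82 ± 0.22 (adjusted p = 0.0018). Cdx1 differed by 1.51 ± 0.26 (adjusted p = 0.010). The third caudal gene, Cdx4, did not pass the filter on dim genes and overlapped, at 5.23 to 6.22 in those 4 arrays and 5.24 to 6.83 in the other 5. Whether the Apc Min/Min array was grown in trophoblast stem cell medium is not stated, and the part of the medium was not tested. Over the retinoid and caudal list 3 of 12 tested genes rose and 1 fell. Of 25 Polycomb genes 1 fell, Phf19 at -1.45 ± 0.26 (adjusted p = 0.013), and 0 rose, a share near the 3.71% of all tested genes. Of the central Hox genes, Hoxa4, Hoxa7, Hoxc6, Hoxc8 and Hoxd8 passed the filter in this comparison and were not called. Without the filter 1 of 37 members was called, Hoxc13. Any part of the Cdx genes in the Hox levels was not tested.

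Apc Min/Min ESCs against Apc +/+ ESCs, 1 array each, had 0 of 37 Hox genes at least 2-fold apart (6.4% of all genes). Hoxc13 was at 8.16 and 7.36, a difference of 0.80, and Hoxa13, Hoxd10 and Hoxd13 were lower by 0.92, 0.91 and 0.88 on the log2 scale. Hoxd13 was at 7.32 in Apc Min/Min and 8.20 in Apc +/+, so the posterior genes did not move together.

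Hoxc8 and the fibroblast markers were both highest in the same 3 pluripotent arrays. It was at 9.64, 9.44 and 9.54 in Apc Min/Min, Apc +/+ and Apc Min/+ ESCs, where fibroblast markers averaged 10.68, 10.24 and 10.28. It was at 8.50 to 8.89 in RTCs and derivatives, where these markers averaged 8.84 to 9.52, and at 9.13 and 7.57 in S33 ESCs without and with dox (8.97 and 8.23). The order was not the same throughout, since undosed S33 ESCs had more Hoxc8 than RTC 2 with a lower marker mean. Other members, chosen after their values were seen, also set those 3 arrays apart from the other 7 pluripotent arrays. The share of all genes that did so was not counted, so this is a description only. Above the other 7 were Hoxa9 (7.57 to 7.72), Hoxb9 (8.78 to 9.38), Hoxc5 (7.33 to 7.50) and Hoxd8 (7.76 to 7.93). Below them were Hoxa4 (7.53 to 7.70), Hoxb1 (7.56 to 7.68) and Hoxd1 (6.0 to 6.42). Over the 10 arrays 9 of 37 members correlated with the marker mean above 0.6, against 9.98% of all genes. Hoxa3, Hoxa4, Hoxb13 and Hoxd1 correlated at -0.61 to -0.83, and the share of all genes that low was not counted. The difference between RTCs and ESCs at Hoxc8 was -0.65 ± 0.16 (adjusted p = 0.060), and the part of the fibroblast markers in it was not tested. At Hoxc13, RTC 1 and Apc Min/Min were both at 8.16 with marker means of 8.84 and 10.68. Over the 10 arrays Hoxc13 correlated with the marker mean at 0.14. The part of the markers in the Hoxc13 values was not tested.

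**Figure D5:**
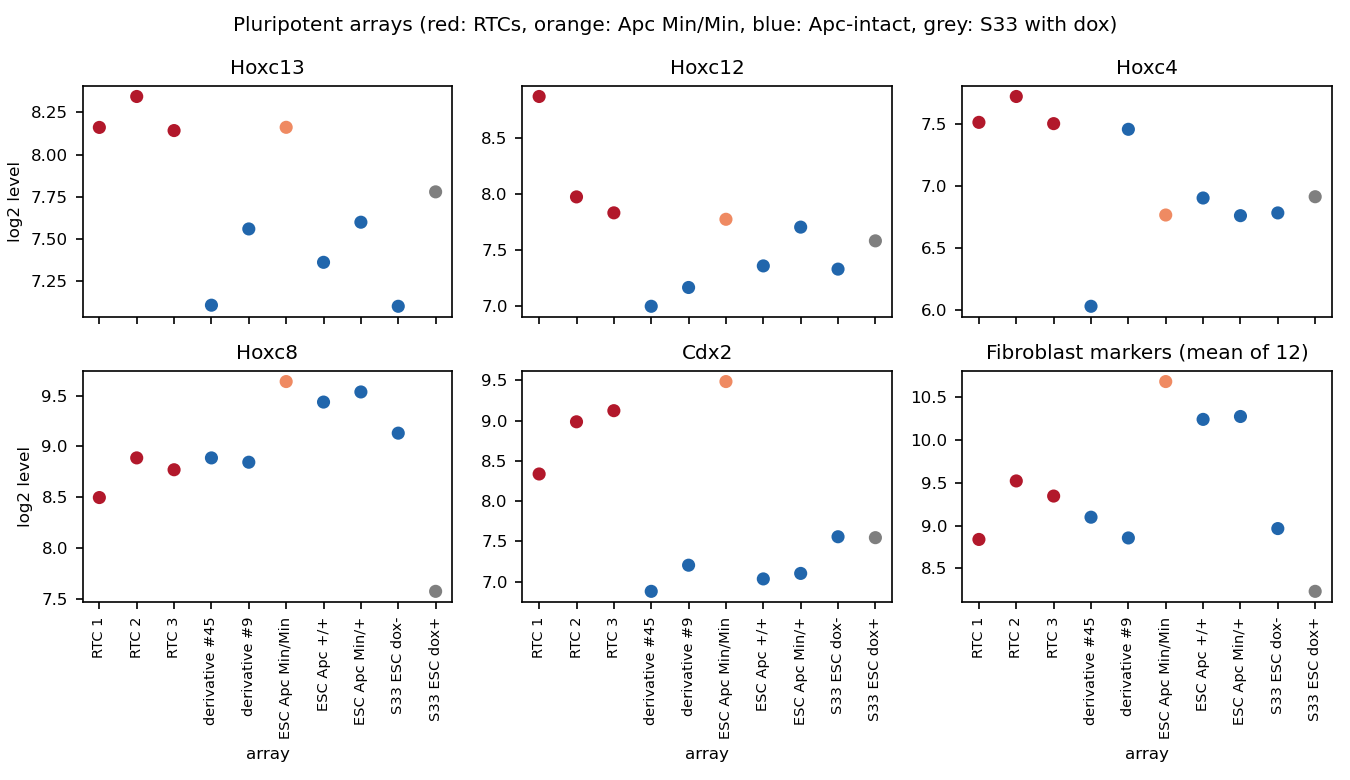
Log2 levels in the 10 pluripotent arrays for 4 HoxC genes, Cdx2 and the mean of 12 fibroblast markers (RTCs red, Apc Min/Min orange, the 5 other arrays without dox blue, S33 with dox grey). Red and orange points are above all blue points for Hoxc13 and Cdx2, while Hoxc8 is highest in the Apc Min/Min, Apc +/+ and Apc Min/+ ESCs, where the markers are highest.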

How the data were processed

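The deposited values are 1 linear intensity per probe set and array, with 18 arrays of 28856 probe sets, of which 28853 held values; the authors' background correction, probe summary and scaling were not given in the sources used here. Deposited medians ran from 142 to 317. Some arrays shared identical values (19.2% of probe sets between the second MEF pair, 17.3% between Apc Min/Min and Apc +/+, 11.7% and 9.52% between derivative #9 and the second MEF pair; at most 0.104% elsewhere), and the arrays may have been scaled in separate sets. Here the intensities were log2 transformed and quantile normalized together. Symbols came from GEO's platform annotation: 21789 probe sets had 1 symbol, 1621 several and 5443 none, and 21698 of those with 1 matched RefSeq.

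Models were fitted with limma 3.58.1 in R 4.3.3 (lmFit, eBayes, Benjamini-Hochberg adjustment over all genes tested, call at 0.05), two-sided, on genes above the array median in at least 1 compared array. Counts over all 37 Hox genes come from the same fits without that filter. Comparisons with 1 array in an arm used a 2-fold threshold and no test. Values in every array are given for up to 8 called members by size in each direction, and for up to 4 called genes of each list. The members and lists were chosen with earlier results of these data known. Axin2 and the comparison of MEF pairs were added after values were seen. The fits were checked on simulated data. Alternatives were the deposited scale, median centring, no filter, the mean over probe sets, leaving out each array, a 1.5-fold threshold, no 4-OHT term and a replicate block. The mean over probe sets could not change a Hox level, since each member had 1 probe set, and acted only through other genes.

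RTC and derivative lines pair by their labels; their deviations correlated at 0.09 and 0.03. Signals from paralogues with similar sequence were not separated. Promoter windows are from RefSeq, GRCm38.p6. The number of arrays limits the precision.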

Additional observations from a re-analysis of the deposited data

Results flagged for a closer look

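Hoxc8 had opposite differences with dox in the S33 cells, 0.44 in MEFs (12.58 to 13.02) and -1.56 in ESCs (9.13 to 7.57). Each arm had 1 array and the difference between the cell types was not tested.

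Of 10 probe sets of the clusters outside the 37 genes, 3 stood higher in #45 MEFs than in the derivatives (given next), while the others differed by -0.17 to 0.30. The probe set shared by Hoxb8 and Hoxb7 was higher by 1.52, at 8.27 to 9.38 in all 6 MEF arrays, 6.62 to 7.72 in pluripotent arrays and 6.26 and 6.53 in organoids. One of 2 probe sets of Hoxd3os1, an antisense transcript of the HoxD cluster, was higher by 0.68, while the other differed by 0.06. Hoxaas2, an antisense transcript of the HoxA cluster, was higher by 0.56, at 7.23 to 7.50 in MEFs and 6.65 to 6.94 in pluripotent arrays. No group of replicates was large enough for a test of single outlying arrays.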

How the results depend on the processing

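Calls between MEFs and derivatives stood at 28 to 31 Hox genes and between organoids and MEFs at 25 to 32 under all alternatives run. Organoids against derivatives gave 5 calls, 4 on the deposited scale (all lower, without Hoxb2), 2 with median centring, and 1 to 6 with 1 array left out. RTCs against ESCs gave 1 call, 0 on the deposited scale, 2 without the filter and 0 to 3 with 1 array left out (0 without RTC 2, RTC 3 or Apc +/+, and 3 without S33 ESC). The Apc grouping gave 1 call, 0 on the deposited scale and 1 without any 1 array. RTCs against derivatives and 4-OHT in MEFs gave 0 throughout, including with the replicate block, which gave 0 in both. The causes were not tested. The labels pair the MEF arrays only by number. With 2 pairs the deviations correlated at 0.77, a value that is necessarily the same for both numbers. The cell-type fit counted the 4 #45 MEF arrays as separate and did not model the pairs. At 1.5-fold, counts over members that passed the filter were 8 for dox in S33 MEFs, 2 for 4-OHT in organoids (2 also at 2-fold on the deposited scale), 5 for Apc Min/Min against Apc +/+, 7 for S33 against #45 MEFs and 6 between the #45 MEF pairs. Over all 37 members 4-OHT in organoids gave 1 higher and 5 lower, and Apc Min/Min 2 higher and 4 lower. Shares of all genes at 1.5-fold are given above for dox in S33 MEFs and not for the other comparisons. These counts therefore show only how the threshold changed the number of members, and not whether it exceeded that of all genes. On the deposited scale the median of all tested genes was 0.27 between MEFs and derivatives, -0.32 between organoids and derivatives and -0.48 between organoids and MEFs, and calls over all genes split 4061 higher to 2155 lower (main 3786 to 3576), 1709 to 3743 (main 2876 to 3212) and 1637 to 5779 (main 3617 to 3725). With median centring it was -0.14 between RTCs and ESCs (272 higher to 595 lower; main 388 to 420; deposited scale 213 to 145), -0.12 between RTCs and derivatives (main split 100 to 91, deposited scale 58 to 23) and -0.12 in the Apc grouping (152 to 378; main 202 to 256), and 0.40 for 4-OHT in organoids. Weak signals near the array median limit what could be called for dim members.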

Other observations

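Among microRNA probe sets of the clusters, Mir10a, in the HoxB cluster, was at 4.77 to 5.01 in MEFs, 4.76 to 5.0 in pluripotent arrays and 4.81 and 4.94 in organoids. Mir10b, in the HoxD cluster, was at 4.93 to 5.14 in MEFs and 4.66 to 4.92 in pluripotent arrays. Mir615, in the HoxC cluster, was at 8.49 to 8.85 in MEFs and 8.03 to 8.84 in pluripotent arrays. Mir196b, in the HoxA cluster, was at 6.72 to 6.89 in MEFs, 6.40 to 6.68 in pluripotent arrays and 7.28 and 6.81 in organoids, so both organoid values lay above every pluripotent array. Mir196a-1 was at 7.43 in RTC 1 and 7.23 in Apc Min/Min ESCs and at 5.85 to 6.37 in the other 8 pluripotent arrays. It was at 6.04 to 6.97 in MEFs and at 5.63 and 5.32 in organoids, below every other array.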
